A study of Homo sapiens with 3 samples.

Results

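The 9 Polycomb genes EZH1, EZH2, SUZ12, EED, RNF2, BMI1, CBX2, CBX7 and CBX8 were followed in colon cancer cells given decitabine, carboplatin or both drugs. They were taken by the gene name that the scanner files give to each probe. They are 9 of the 18615 genes on the array and have 15 of its 41000 probes. All 15 probes are described, and 2 of them, which lie in columns 1 to 9 of the array, are given apart because that edge was displaced on 1 array. The choice of the genes uses no measured value, while the setting apart of the edge rests on the measured changes there.

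The cells were YB5, a clone of the colon cancer line SW48 with a GFP reporter behind a methylated cytomegalovirus promoter. Decitabine, which lowers DNA methylation, was given at 25 nM, and carboplatin, which crosslinks DNA, at 20 µM by the sample labels. The study's text gives a higher carboplatin dose for these arrays, and 1 of its figure captions gives 20 µM. Control cells received the diluent, DMSO. Cells were dosed 4 times, on days 1 to 4, and harvested on day 6. RNA of treated cells carried the dye Cy3 and RNA of control cells the dye Cy5 on 3 arrays of 1 slide, 1 array for each treatment. There was no dye swap, so a probe that takes up one dye better than the other shows it in all values below. The sources do not say if the 3 control channels share an RNA extract. With 1 array per treatment no test was possible, no p-value is given. Precision is limited by the number of arrays.

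Polycomb proteins keep genes silent by marking histones. Polycomb repressive complex 2 (PRC2) methylates lysine 27 of histone H3 through its enzyme EZH2 or EZH1, with SUZ12 and EED as core subunits. Polycomb repressive complex 1 (PRC1) carries the ubiquitin ligase RNF2 (RING1B) with a partner such as BMI1, and CBX proteins such as CBX2, CBX7 and CBX8 bind the methylated histone. In tumours with heavily methylated promoters, many of the silenced genes had been Polycomb targets in stem cells. EZH2 is known to be made mostly in dividing cells, under E2F transcription factors, and EZH1 also in resting cells.

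Changes are given as log2 of treated signal over control signal after loess normalization within the array, and a gene is represented by its brightest probe outside columns 1 to 9. The words rose and fell are kept for ratios of at least 1.5 in either direction. The error given is the pooled SD of 264 probes that were spotted 10 times on each array, over their spots outside columns 1 to 9. It was 0.08, 0.07 and 0.08 on the log2 scale for the decitabine-, carboplatin- and combination-labelled (both drugs) arrays, and it covers spotting and scanning alone. Over all their spots it was 0.23 on the decitabine-labelled array.

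EZH2 was the only one of the 9 genes past 1.5-fold at its representing probe, and the first 30 bases of the 60 in that probe are shown for that reason. The probes of BMI1 are shown because they differed among themselves, and those of RNF2 and CBX7 because 1 probe of each lies at the displaced edge. Positions are those of the scanner files on GRCh37, and no annotation of that build was used to place them in an exon or untranslated region. No letters are in capitals here, since no part of a probe is singled out.
EZH2, A_23_P259641, chr7:148504521-148504580, minus strand: tttattgccttctcaccagctgcaaagtgt
BMI1, A_23_P115732, chr10:22619812-22619878, plus strand: ttggtcgaacttggtgtgtgttcatcagtt
BMI1, A_23_P314115, chr10:22619577-22619636, plus strand: ccagcaggttgctaaaagaaggcattttat
BMI1, A_24_P303989, chr10:22617587-22617995, plus strand: agtttctcagaagtaaaatggacataccta
RNF2, A_23_P85543, chr1:185069031-185069090, plus strand: ccttgatacagccagtgagaagcagtatac
RNF2 at the edge, A_24_P199500, chr1:185071124-185071183, plus strand: aaactgcttagattttgttgatgacattag
CBX7, A_24_P19410, chr22:39526819-39526878, minus strand: ggtaagagactgtatagcatctatttattt
CBX7 at the edge, A_23_P250735, chr22:39527000-39527059, minus strand: tctcagcacaagagcgcttcctttgcacag
The BMI1 probe that runs over 409 bases of the genome crosses an exon junction, as do the SUZ12 probes A_32_P24223 and A_24_P873263, which run over 2825 and 868 bases.

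The 3 arrays were alike in signal. Over all gene spots the median control signal was 297, 315 and 282 units on the decitabine-, carboplatin- and combination-labelled arrays. In the treated channel it was 166, 163 and 167 units. Raw signals of the 2 channels below therefore also differ by this brightness, which the normalized changes take into account. Spots well above background made up 68.2 to 70.3 % in the control channel and 65.8 to 68.5 % in the treated channel. On the decitabine-labelled array, columns 1 to 9, with 10.1 % of the gene spots, had a median change of 0.75 against −0.02 elsewhere, and on the other arrays it was −0.03 and 0.01. Of 9 colon epithelial markers outside those columns, 8, 8 and 6 were well above background in both channels, and of 9 markers of stroma and blood 1, 3 and 2. Genes induced by p53 were looked at too, and their counts do not test the labels. All 13 measured rose on the decitabine-labelled array (median change 2.31) and 13 with both drugs (2.06). On the carboplatin-labelled one 8 rose (0.65), and 2 when arrays were centred on their medians in place of loess. Of the 53 genes that the study lists as lowered by carboplatin, 41 fell on the decitabine-labelled array, 4 on the carboplatin-labelled one and 37 on the combination-labelled one. That list was chosen on these arrays, so its counts are no independent evidence of a drug effect. The listed genes moved more on the decitabine-labelled array than on the one whose drug they were listed for. The study also counted more changed genes for carboplatin than for decitabine. Here 4.89 % of all genes rose and 5.09 % fell on the decitabine-labelled array, and 2.77 and 1.39 % on the carboplatin-labelled one. Whether the labels of these 2 arrays were exchanged was not tested. Arrays are named here by their labels throughout, and no change on them is assigned to a drug.

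EZH2, the main methyltransferase of PRC2, fell on the decitabine-labelled array and on that with both drugs. Its probe gave mean signals of 29736, 27392 and 25285 intensity units in the control channels of the decitabine-, carboplatin- and combination-labelled arrays. The treated channels gave 5809, 9747 and 6353 units. After scaling between arrays, the control channels had levels of 14.22, 14.05 and 14.15 (log2 signal, SD 0.086, n = 3 channels) and the treated channels 13.09, 13.88 and 13.24. All treated channels lay below the lowest control channel, that on the carboplatin-labelled array by the least.

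The change of EZH2 was −1.13 ± 0.08 on the decitabine-labelled array, which is 2.19-fold lower. With both drugs it was −0.90 ± 0.08, or 1.87-fold lower. On the carboplatin-labelled array it was −0.17 ± 0.07, which does not reach 1.5-fold. EZH2 was 1 of 9 genes that fell on the first array, where 5.09 % of all genes fell, and 1 of 9 with both drugs, where 5.88 % fell. None of these 9 genes rose on any array, against 4.89, 2.77 and 7.34 % of all genes on the decitabine-, carboplatin- and combination-labelled arrays. On the carboplatin-labelled one none of the 9 fell and 1.39 % of all genes did. Median centring in place of loess made 5, 4 and 5 of the 9 fall on the 3 arrays, where 26.2, 18.1 and 21.3 % of all genes did.

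Among 12170 genes well above background in both channels of every array, 132 others were as low as EZH2 on the decitabine-labelled array and 321 with both drugs. On both of these arrays together 120 genes were as low. On the carboplatin-labelled array 3217 were. The genes nearest to EZH2 over the 3 changes were B4GALT1, a galactosyltransferase, at a Euclidean distance of 0.08, YBX2, a nucleic acid binding protein known from germ cells, at 0.10, and EMP2, a membrane protein, at 0.11.

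**Figure D1:**
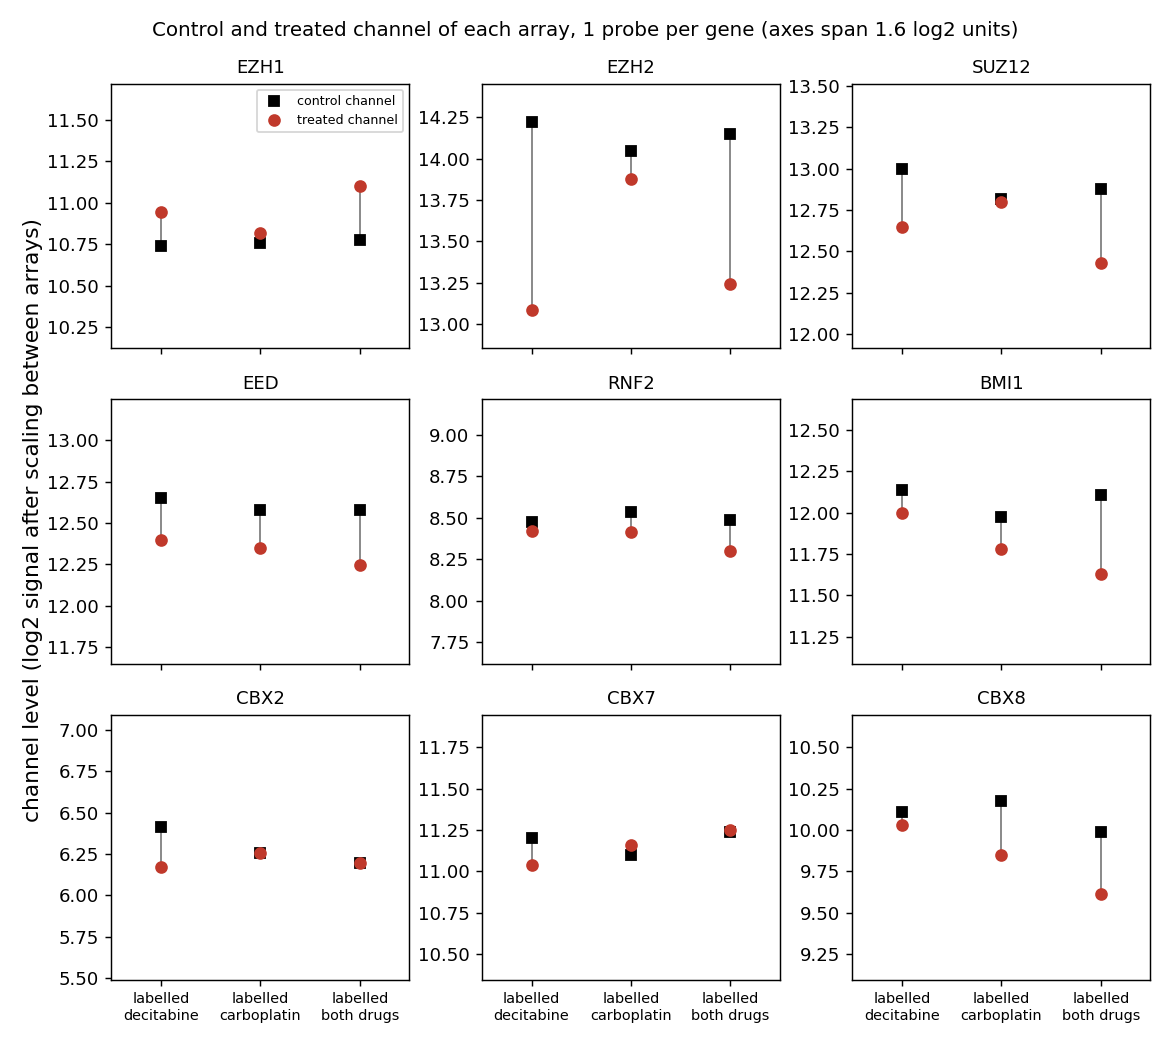
Level of each gene (log2 signal after scaling between arrays, vertical axis) in the control channel (squares) and treated channel (circles) of each array, 1 probe per gene, with every panel spanning the same range. The treated circle of EZH2 lies 1.13 and 0.90 below its control square on the decitabine- and combination-labelled arrays, and no other gene is as far apart.

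The array was measured on bulk RNA, so fewer dividing cells and less EZH2 RNA per cell cannot be told apart. Genes of replication and mitosis moved on the same arrays. Of 15 measured outside the edge columns, 9 fell and 1 rose on the decitabine-labelled array (median change −0.79), none passed on the carboplatin-labelled one (−0.11) and 9 fell with both drugs (−0.68). Of all genes 5.09, 1.39 and 5.88 % fell on the 3 arrays. With arrays centred on their medians 14, 7 and 13 of the 15 fell, where 26.2, 18.1 and 21.3 % of all genes did. The mitotic kinase PLK1 measured −1.51, −0.33 and −1.54 on the 3 arrays. The spindle checkpoint kinase BUB1 measured −1.30, −0.18 and −1.53. The mitotic cyclin CCNB1 measured −1.35, −0.39 and −1.52. The gene that rose was PCNA (0.68), the sliding clamp of DNA polymerase, which p53 can also induce and which is named after its value was seen. By median centring PCNA measured 0.06 on that array and did not rise. The part of these changes in that of EZH2 was not tested.

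Promoters were searched for E2F motifs because EZH2 is a known E2F target. In RefSeq windows of 250 bases before to 50 after each gene start on GRCh38.p14, the letters TTTCGCGC, TTTGGCGC, TTTCCCGC and TTTGCCGC were sought on both strands. They stood in 3.31 % of 35116 windows, and 3.99 % of 27305 genes held a match in at least 1 window. Of the 7 Polycomb genes with a window, 3 held a match. In the list of replication and mitosis 7 of the 16 genes with a window did. That list was drawn up as E2F and proliferation genes, so its share is no independent comparison. The matches are shown in capitals within 30 bases, read along the gene.
EZH2, chr7:148884272-148884301, minus strand: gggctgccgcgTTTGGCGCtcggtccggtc
SUZ12, chr17:31936807-31936836, plus strand: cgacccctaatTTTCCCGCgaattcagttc
EZH1, chr17:42745137-42745166, minus strand: gcggggttttgGCGGCAAAtgacagtagtg
The match of EZH2 began at base 2 after the start, that of SUZ12 at base −189 and that of EZH1, on the opposite strand, at base −115. EZH2 fell on 2 arrays, whereas SUZ12 and EZH1 did not pass 1.5-fold on any. EZH2 has a further window, which held none. A match of letters shows no binding, and no window was found for CBX2 and CBX8.

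EZH1, the paralogue of EZH2, passed 1.5-fold on no array. Its control signals were 2616, 2659 and 2381 units and its treated signals 1346, 1187 and 1495. The changes were 0.21 ± 0.08, 0.06 ± 0.07 and 0.33 ± 0.08 on the decitabine-, carboplatin- and combination-labelled arrays. The scaled treated levels of 10.94, 10.82 and 11.10 all lay above the control levels of 10.74, 10.76 and 10.77. None reached 1.5-fold, and the sign depended on the normalization: with each array centred on its median in place of loess, EZH1 measured −0.31, −0.38 and −0.10.

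SUZ12, the core subunit that holds PRC2 together, was measured by 3 probes outside the edge. Its brightest probe, A_23_P100883, gave control signals of 12800, 11232 and 10402 units and treated signals of 4361, 4562 and 3687. The change was −0.35, −0.02 and −0.45. The junction probe A_24_P873263 gave −0.40, −0.02 and −0.41, and the junction probe A_32_P24223 gave −0.22, 0.25 and −0.25. All 3 probes were thus below 0 on the decitabine- and combination-labelled arrays by more than the spotting error, and none reached 1.5-fold. On the carboplatin-labelled array they differed in sign, and the level of the brightest probe, 12.80, was only just under the lowest control level of 12.82.

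EED, which reads the methylated histone within PRC2, gave control signals of 10013, 9518 and 8522 units and treated signals of 3671, 3363 and 3280. The change was −0.25, −0.23 and −0.33. Its treated levels of 12.40, 12.35 and 12.25 were all under the control levels of 12.65, 12.58 and 12.58, by a like amount on every array and without reaching 1.5-fold. EED and EZH2 differed in this respect, since the change of EZH2 on the decitabine-labelled array was 0.96 below that on the carboplatin-labelled array and that of EED 0.02 below.

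**Figure D2:**
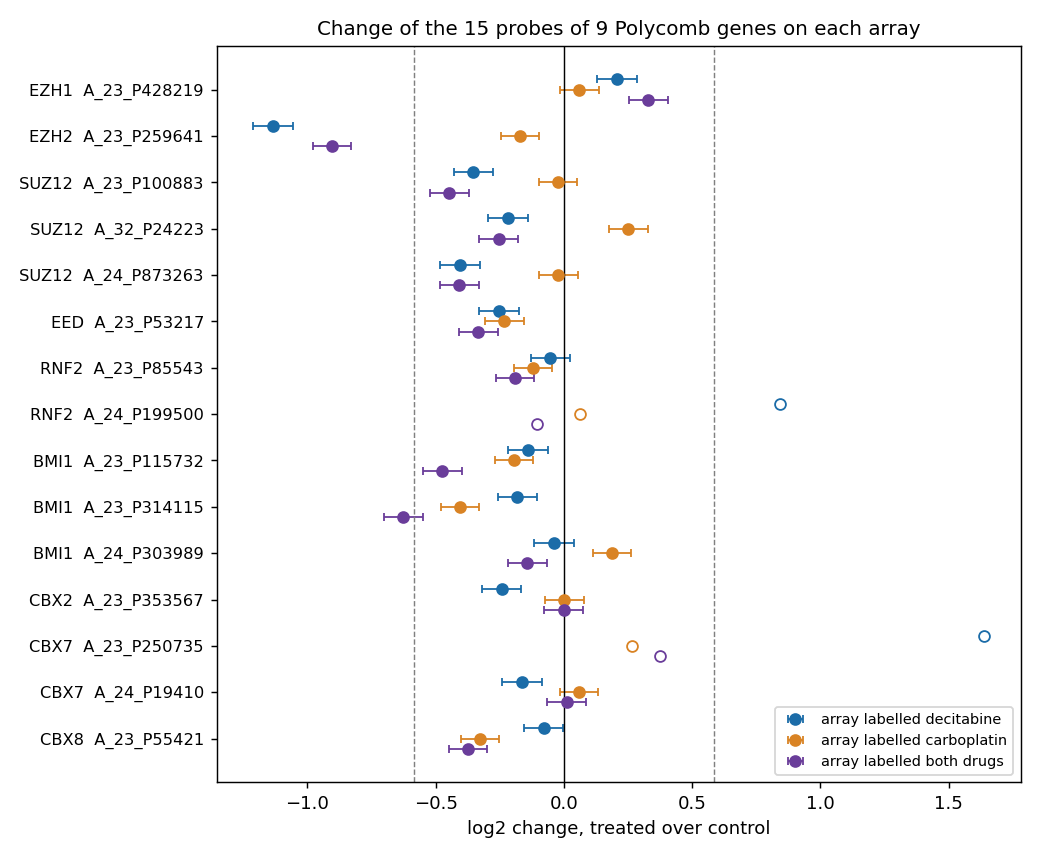
Log2 change of treated over control (horizontal axis) for the 15 probes of the 9 genes, with bars of 1 pooled SD of repeated spots and dashed lines at 1.5-fold. Open points are the edge probes of RNF2 and CBX7, drawn without a bar, which reach 0.84 and 1.64 on the decitabine-labelled array, and the only filled points beyond a dashed line are EZH2 on 2 arrays and BMI1 A_23_P314115 with both drugs at −0.63.

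RNF2 codes for the ubiquitin ligase of PRC1. The probe outside the edge gave control signals of 526, 536 and 472 units and treated signals of 244, 243 and 225. The change was −0.05, −0.12 and −0.19. The treated levels of 8.42, 8.42 and 8.30 lay under the control levels of 8.47, 8.54 and 8.49, on the decitabine-labelled array by less than the spotting error.

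BMI1, a PRC1 subunit known as an oncogene that holds back the CDKN2A locus, was measured by 3 probes. The brightest, A_23_P115732, gave control signals of 6981, 6291 and 6036 units and treated signals of 2792, 2304 and 2135. The change was −0.14, −0.19 and −0.47. Its treated level on the decitabine-labelled array lay within the range of the control levels (11.97 to 12.14), and those on the others, 11.78 and 11.63, lay below it.

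The other probes of BMI1 gave different sizes. A_23_P314115 measured −0.18, −0.40 and −0.63, so that it fell past 1.5-fold with both drugs, where 4.52 % of all probes outside the edge fell. The junction probe A_24_P303989 measured −0.04, 0.19 and −0.14. All 3 probes were lowest with both drugs, but 1 of 3 was above 0 on the carboplatin-labelled array. BMI1 is therefore not counted as a gene that fell.

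CBX2, a reader of the PRC2 mark, was not well above background in either channel of any array. The control signals were 90.5, 86.6 and 86.4 units over a local background of 61 to 72, and the treated signals were 58.5, 63.6 and 64.9 over 54 to 57. No change can be read for it. The loess values were −0.24, 0.00 and 0.00.

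CBX7, another reader of that mark, gave control signals of 3587, 3413 and 3293 units and treated signals of 1426, 1519 and 1641 at the probe outside the edge. The change was −0.16, 0.06 and 0.01. The treated levels of 11.04, 11.16 and 11.25 ran from just under to just over the control range of 11.10 to 11.24. CBX8, a further reader, gave control signals of 1643, 1758 and 1367 units and treated signals of 716, 626 and 548. Its change was −0.08, −0.33 and −0.37. On the decitabine-labelled array the treated level, 10.03, lay within the control range of 9.99 to 10.18, and on the others, at 9.85 and 9.61, below it.

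The edge probes of RNF2 and CBX7 went against the other probes of those genes on the decitabine-labelled array. The RNF2 edge probe, in column 1, gave control signals of 225, 416 and 391 units and treated signals of 224, 214 and 205. The treated signals were alike on the 3 arrays, and the low value was the control channel of the decitabine-labelled array. Its change was 0.84, 0.06 and −0.10.

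The CBX7 edge probe, in column 3, gave control signals of 3447, 9364 and 7997 units and treated signals of 4738, 4659 and 5021. Here too the control channel of the decitabine-labelled array stood apart. Its change was 1.64, 0.27 and 0.38, against −0.16, 0.06 and 0.01 at the other CBX7 probe. On this array 57 % of all edge probes passed 1.5-fold upward, against 1.91 and 6.62 % on the others, so both edge values were given no call.

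The edge values also depended on the processing. In the table deposited by the authors the CBX7 edge probe stood at 0.55, 0.70 and 0.76 and the RNF2 edge probe at 0.33, 0.34 and 0.21. The median over edge probes was 0.36, 0.20 and 0.18 there. In the log ratio of the scanner software, which evens out signal over the array, the CBX7 edge probe stood at 0.02, 0.28 and 0.28 and the RNF2 edge probe at −0.77, 0.13 and −0.21.

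**Figure D3:**
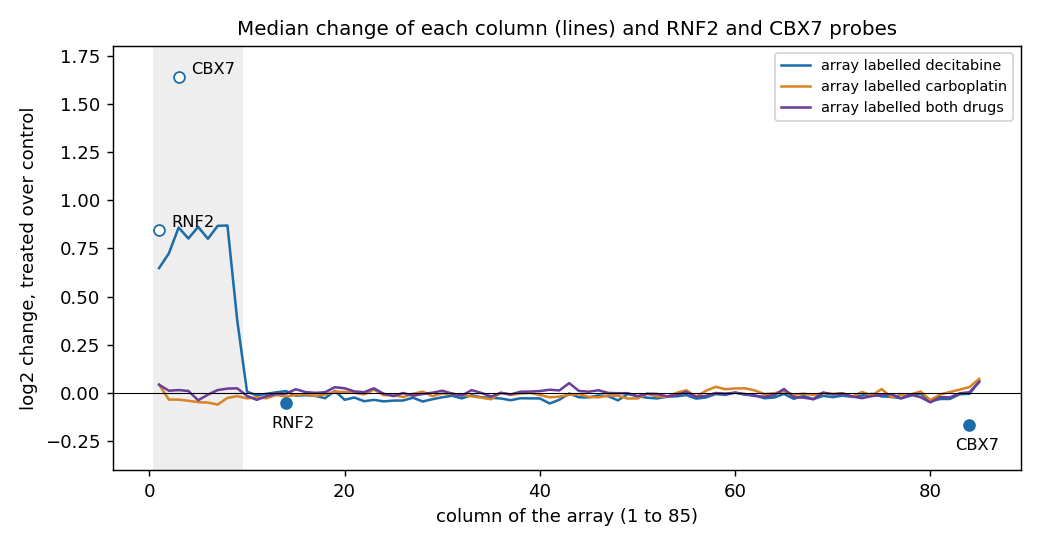
Median log2 change of the gene spots in each of the 85 array columns (horizontal axis) for the 3 arrays as lines, with the probes of RNF2 and CBX7 on the decitabine-labelled array as points (open in the shaded columns 1 to 9). Only the line of the decitabine-labelled array leaves 0 in the shaded columns, where the edge probe of RNF2 lies at 0.84 against a column median of 0.65 and that of CBX7 at 1.64 against 0.86, above its column.

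The 9 genes had a median change of −0.16 on the decitabine-labelled array, −0.12 on the carboplatin-labelled one and −0.33 with both drugs. The medians of all genes were between −0.02 and 0.00. Of the 9, CBX2 included, 8, 6 and 7 were below 0, against 53.1, 50.3 and 49.4 % of all genes. These are descriptions, and the genes are not independent of each other.

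**Figure D4:**
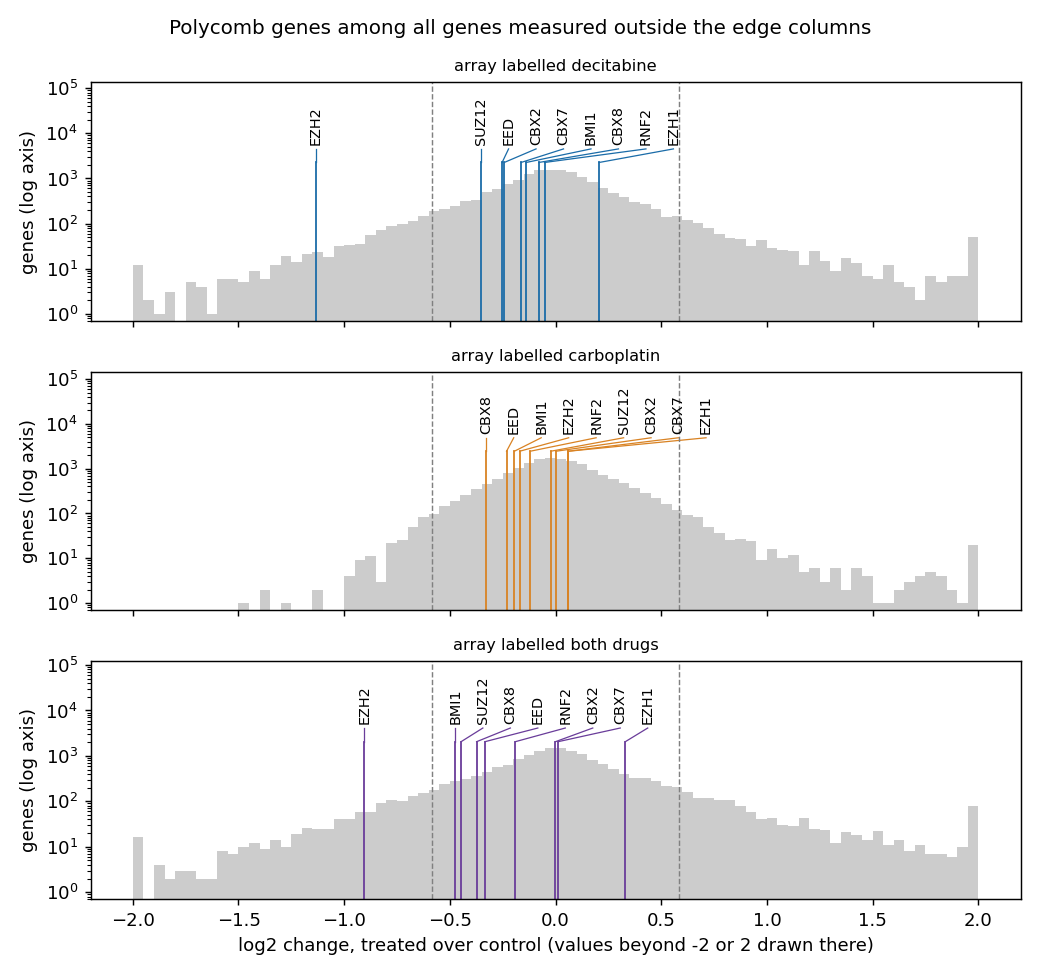
Number of genes (log axis) by log2 change of treated over control on each array in grey, with the 9 Polycomb genes as coloured lines and 1.5-fold as dashed lines. EZH2 stands in the left tail on the decitabine-labelled (−1.13) and combination-labelled arrays (−0.90) and within the bulk on the carboplatin-labelled one (−0.17), as the other 8 genes do on each array.

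The array with both drugs was then set against each single-drug array. The error of such a difference was 0.11 on the log2 scale. Against the decitabine-labelled array, EZH2 was 0.23 higher with both drugs, BMI1 was 0.33 lower and CBX8 0.29 lower. None of the 9 genes differed by 1.5-fold by loess, where 1.84 % of all genes were that much higher and 0.321 % that much lower. In the log ratio of the scanner software EZH2 stood at −1.59 and −0.91 on these arrays, which is more than 1.5-fold apart. Against the carboplatin-labelled array, EZH2 was 0.73 lower (1.66-fold), where 3.45 % of all genes were that much lower and 4 % that much higher. SUZ12 was 0.42 lower, which does not reach 1.5-fold. The change of EZH2 with both drugs was 0.40 above the sum of its changes on the single-drug arrays, so the changes did not add on this scale. All of these differences set 1 array against 1 array.

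Of 29 other Polycomb genes, 0, 0 and 2 passed 1.5-fold on the decitabine-, carboplatin- and combination-labelled arrays. Of all genes 9.97, 4.15 and 13.2 % passed either way there. Among 6 measured partners of PRC2, none passed 1.5-fold on any array, with ranges of −0.46 (RBBP7, a histone chaperone) to 0.17 (PHF19, a reader of H3K36 methylation) on the decitabine-labelled array, −0.29 (AEBP2) to 0.31 (RBBP4) on the carboplatin-labelled one and −0.52 (PHF19) to 0.18 (PHF1) with both drugs. The medians were −0.18, 0.07 and −0.36. Among 20 further PRC1 genes, none passed on the single-drug arrays, and CBX6, a chromobox gene, rose with both drugs. It measured 0.56, 0.50 and 0.68. With the arrays centred on their medians it measured 0.00, 0.01 and 0.21 and passed nowhere.

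Opponents of Polycomb were measured too. The demethylases of H3K27 did not reach 1.5-fold as normalized here: KDM6B measured 0.57, −0.02 and 0.42, and KDM6A measured −0.11, −0.50 and −0.01. Other processing changed this: KDM6B rose on the decitabine-labelled array at 0.59 when edge columns were left out before loess and at 1.03, with 0.70 for both drugs, in the log ratio of the scanner software. KDM6A fell on the carboplatin-labelled array at −0.72 in the deposited table and, by median centring, at −0.62 and −0.90 on the decitabine- and carboplatin-labelled arrays. The H2A deubiquitinase BAP1 (0.12, 0.48 and 0.20) and its cofactors ASXL1 (−0.34, −0.25 and −0.34) and ASXL2 (−0.02, −0.22 and −0.25) did not pass by loess, though 1, 2 and 2 of these 3 fell by median centring. Of 12 Trithorax genes, which activate what Polycomb silences, WDR5 alone passed: it measured 0.48, 0.66 and 0.78 and rose on the carboplatin- and combination-labelled arrays. On those 2 arrays 2.77 and 7.34 % of all genes rose. WDR5 is a scaffold of H3K4 methyltransferases. It did not pass on any array once they were centred on their medians, where it measured −0.03, 0.22 and 0.35. By that centring 8, 1 and 4 of the 12 Trithorax genes fell, and 26.2, 18.1 and 21.3 % of all genes.

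The chromobox genes outside Polycomb gave 1 gene that fell. CBX1, which codes for the heterochromatin protein HP1β, measured −0.76, −0.23 and −0.80 and passed 1.5-fold on the decitabine- and combination-labelled arrays. There 5.09 and 5.88 % of all genes fell. CBX5, which codes for HP1α, measured −0.35, 0.14 and −0.35, and CBX3, which codes for HP1γ, measured 0.20, 0.09 and 0.06. By median centring CBX5 also passed on the decitabine- and combination-labelled arrays, at −0.83, −0.27 and −0.73. In the deposited table CBX5 stood at −0.31, −0.05 and −0.40, so its sign on the carboplatin-labelled array depended on the processing. The study reported less CBX5 RNA after carboplatin by quantitative PCR. It reported HP1β and HP1γ protein as unaffected by either drug. Those are other measures than the arrays, and the cause of the difference was not tested.

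**Figure D5:**
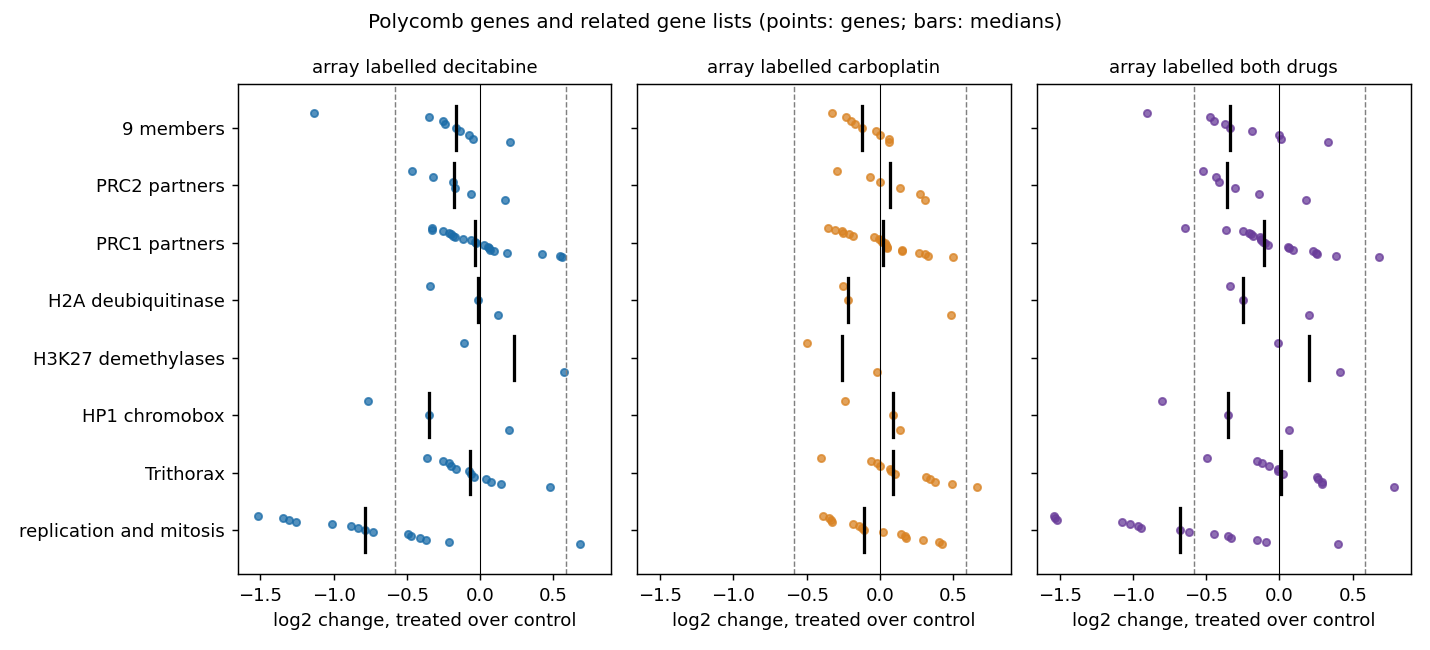
Log2 change of treated over control (horizontal axis) of each gene in the 9 Polycomb genes and 7 related lists, 1 panel per array, with medians as bars and 1.5-fold as dashed lines. The list of replication and mitosis has medians of −0.79 and −0.68 on the decitabine- and combination-labelled arrays, where EZH2 is the lowest of the 9 Polycomb genes.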

How the data were processed

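RNA of treated (Cy3) and control (Cy5) YB5 cells was measured on 3 dual-colour arrays, 1 per treatment, grouped by the sample labels. The scanner files deposited by the authors hold spot intensity and flags read by Agilent Feature Extraction 9.5.3.1, with a log10 ratio of red over green after that software's own background and dye steps. The submitters' processing notes name version 8.5.1.1 of it. The table deposited by the authors holds 1 log2 ratio per probe, loess normalized with limma and agilp. Its background step and direction are not stated, and the direction, treated over control, was set by its correlation with the scanner values (0.87, 0.84 and 0.94).

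For the mean intensity, normexp (offset 50) was run with the median local background, and values were normalized by loess within each array in limma 3.58.1 (R 4.3.3), with control spots and outlier spots at weight 0. Channel levels came from Aquantile scaling. Spots of a probe were averaged, leaving out spots in columns 1 to 9 where others existed. Genes were matched to RefSeq for 29381 of 41000 probes. Outlier spots numbered 276, 111 and 89. Signal over background stands in for depth: 68.2 to 70.3 % of control spots and 65.8 to 68.5 % of treated spots were well above background. A gene was called at a ratio of at least 1.5. The normalization was tested on simulated data, with known changes put into spots brighter than the median of those well above background. The simulation held no dye bias that varies with intensity and no displaced edge. It therefore cannot decide between loess and median centring.

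Every Polycomb probe is named, with at most 3 called genes of each list and the 3 genes nearest to a called Polycomb gene. Genes at the ends of a range, and the demethylase, deubiquitinase and HP1 lists, are named in addition. Some genes that the rule selects are not reported here. The Polycomb genes and the lists were chosen with earlier results of these data known. Other normalizations, signals, probe choices and filters were tried.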

Additional observations from a re-analysis of the deposited data

How the results depend on the processing

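EZH2 kept its fall past 1.5-fold on the decitabine- and combination-labelled arrays under every alternative tried, at −1.06 to −1.72 and −0.85 to −1.42. Its largest size on the first array came from median centring in place of loess (−1.72) and from the log ratio of the scanner software (−1.59). Median centring moved the median of all genes to −0.22, −0.14 and −0.10 on the decitabine-, carboplatin- and combination-labelled arrays, and EZH2 relative to it stood at −0.58 on the carboplatin-labelled array and −1.32 on the combination-labelled one. Under it the number of the 9 genes that fell became 5, 4 and 5 (1, 0 and 1 by loess), where 26.2, 18.1 and 21.3 % of all genes fell and 2.97, 9.01 and 4.3 % rose, and their median change became −0.69, −0.53 and −0.74. Of 29 other Polycomb genes, those past 1.5-fold became 13, 8 and 11, against 0, 0 and 2. EZH2 passed on the carboplatin-labelled array only there, at −0.72. With the log ratio of the scanner software the median of the 9 genes on the decitabine-labelled array was −0.27, 2 other Polycomb genes passed there, CBX2 (0.64, not well above background) made 1 of the 9 rise on the carboplatin-labelled array, and the median difference of both drugs from that array was −0.22 against −0.07. In the values deposited by the authors, SUZ12 joined EZH2 to make 2 of the 9 that fell with both drugs, at −0.59, the median of the 9 there was −0.43, and 1 other Polycomb gene passed on the decitabine-labelled array and 1 with both drugs. With edge columns included, 1 of the 9 rose on the decitabine-labelled array, CBX7 at 1.64, and 1 other Polycomb gene passed there. Of the other counts and medians, 107 stayed within the spotting error or within 1.5 times the count. The lists of p53 targets and of replication and mitosis kept the sign of their medians under each normalization tried, and the median of the PRC2 partners on the carboplatin-labelled array was 0.07 by loess and −0.41 by median centring. The cause of these differences was not tested. Signal limits CBX2, which has no readable change. No paired analysis was possible because there is 1 array per treatment. No replicate could be left out for the same reason.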

Other observations

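Transcription factors that Polycomb silences in many tissues were mostly not detected. Of 24 measured outside the edge columns, 14, 13 and 14 were not well above background in either channel on the decitabine-, carboplatin- and combination-labelled arrays, and 7, 9 and 8 were above it in both. GATA6, a factor of endoderm and intestine, fell on all 3 arrays, at −0.86, −0.76 and −1.39. It fell past 1.5-fold under every normalization tried. NKX2-5, a heart factor, measured 0.60, −0.08 and 0.50 and rose on the decitabine-labelled array, though by median centring it measured 0.04 there. EN1, named after its values were seen, gave treated signals of 55.1, 138 and 96.1 units and was well above background in the treated channel of the carboplatin- and combination-labelled arrays, but in no control channel. The list as a whole had medians of −0.09, −0.03 and −0.04.

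Markers of the colon epithelium did not move together. Villin, VIL1, measured −0.88, 1.87 and 0.19, so that the decitabine- and carboplatin-labelled arrays had opposite signs, which was also so by median centring (−1.08 and 1.58). E-cadherin, CDH1, measured −0.89, 0.03 and −0.86. Keratin 18, KRT18, measured 0.83, 0.50 and 1.14, and 0.08, −0.22 and 0.39 by median centring.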
